A study of Mus musculus with 16 samples.

Results

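Passage 7 cells were compared with passage 4 cells of 1 mouse kidney cell line in which doxycycline (DOX) induces the knockout of Pkd2, with DOX present in both groups. The comparison used 8 of the 16 libraries of the series, 4 per passage, chosen by their passage and DOX labels. The labels call the line a mouse inner medullary collecting duct line, and the series' design text says that it was made from a Pkd2 knockout mouse. Both groups were grown on permeable filters for 10 days and received DOX at 2 ug/mL for 6 days with daily medium changes. Their genotype label is Pkd2KO induced by DOX. The libraries without DOX come from the same cells, also titled Pkd2KO, and carry the genotype label wild type. Passage number is the only labelled difference between the groups compared. The strain, the sex and age of the source animal, and how DOX removes Pkd2 are not given in the sources used here. Since 1 line was used and nothing says that the replicates came from separate cultures, the p-values below measure only the spread between these libraries. The headers of a second deposited table, of TPM values, disagreed with those of the counts. Of its 16 columns, 4 held the values of the like-named count column and 12 those of another one (best correlation at least 0.999 over 11194 genes, next best at most 0.904). In that table the 4 count libraries of passage 4 with DOX are headed as passage 7, so all passage labels below are those of the count table.

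The collecting duct is the last segment of the nephron, where principal cells take up sodium and water under the control of aldosterone and vasopressin. Pkd2 encodes polycystin 2, a cation channel that passes calcium, sits in the cilium and in the endoplasmic reticulum and works with polycystin 1. Loss of either protein causes autosomal dominant polycystic kidney disease. Epithelial cells kept in culture often lose segment-specific transporters and gain growth and matrix genes as they are passaged. Of 16 principal cell markers, 8 had enough counts to be tested. Aqp2, the vasopressin-regulated water channel that defines the cell type, had no count in the 8 libraries, which allows a level of up to 0.175 to 0.261 CPM by library (CPM is the count relative to the library total, here scaled by TMM). The summed level of the principal cell markers was 2590 to 2783 CPM at passage 4 and 3464 to 3838 CPM at passage 7, and came mainly from the simple epithelial keratins Krt8 and Krt18. The sum therefore does not describe the other members. Of the 8 tested, 4 rose, both keratins among them, and 2 fell at the threshold given below (median log2 change 0.20). Among the markers of other cell types, the urothelial list had the highest sum. The summed level of 9 leukocyte markers was 20.1 to 35.1 CPM at passage 4 and 36.1 to 43.5 CPM at passage 7, with Adgre1, Itgam and C1qa at no count. For 8 endothelial markers it was 3.68 to 4.54 and 8.75 to 9.72 CPM, with Tek and Emcn at no count, and for 10 fibroblast and pericyte markers 12.1 to 15.7 and 12.6 to 21.4 CPM, with Col3a1, Lum and Meox1 at no count. The 10 proximal tubule markers summed to 11.6 to 13.5 and 11.99 to 14.4 CPM, and the 9 urothelial markers, nearly all of it Krt20, to 781 to 979 and 541 to 657 CPM. The lower urothelial sum at passage 7 thus describes Krt20. Of the 4 urothelial markers tested, 1 rose and 1, Krt20, fell at the threshold given below (median log2 change 0.26). In bulk RNA, fewer cells of a type and less RNA per cell cannot be told apart.

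A large share of the genes differed between the passages, most of them by small amounts. Of 14887 genes tested, 3660 (24.6%) rose and 3272 (22.0%) fell from passage 4 to passage 7 at an adjusted p under 0.05 in the quasi-likelihood test of edgeR (adjusted by Benjamini-Hochberg), 6932 (46.6%) in all. The median size of change among the called genes was 0.35 on the log2 scale, and 67.6% of them moved by less than 0.5. At least 2-fold changes were found for 450 genes that rose (3.02%) and 303 that fell (2.04%). A refit of the genes at a mean of 5 CPM or more, and 1 CPM in 4 libraries, called 175 and 121. The median over all tested genes was -0.004. The 4 passage 7 libraries all lay above the 4 passage 4 libraries for 2674 genes (18.0%) and all below for 2202 (14.8%). Total counts were 11711992 to 17188295 per library at passage 4 and 11486047 to 16191097 at passage 7. Replicates 1 and 2 stood apart from replicates 3 and 4 at both passages, which the fit takes up with a term for the replicate set. Without that term 2630 genes rose and 2088 fell. Between the sets, replicates 3 and 4 had 1966 genes at a higher level (13.2%) and 1910 at a lower one (12.8%). The first principal component of the 8 libraries, 57% of the variance, separated the passages and the second, 18.5%, separated the sets. Of the 6932 called genes, 6905 moved in the same direction within both sets. The genes were called from both sets together, which favours such agreement, so this count is not a replication of the calls. Values of 4 libraries are given below in the order of their replicate numbers. Counts of list members below are to be read beside the shares of all tested genes, 24.6% higher and 22.0% lower. A list near those shares was called no more often than genes at large.

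Pkd2 itself, the targeted gene (ENSMUSG00000034462, chr5:104459450-104505819 in GRCm38), was reduced by DOX at both passages, and its difference between them did not pass the test. Scaled over all 16 libraries, it was at 52.1, 47.8, 53.6 and 57.4 CPM with DOX at passage 4 and at 47.6, 52.9, 60.3 and 65.9 CPM with DOX at passage 7. Without DOX it was at 140.1 ± 4.24 CPM (SD, n = 4) at passage 4 and 185.5 ± 1.40 CPM at passage 7, so that 37.6% and 30.6% of its level was left with DOX. The groups with DOX overlapped, with a log2 difference of 0.11 (SE 0.06, adjusted p = 0.161; exact 2-sided permutation test of CPM, p = 0.4, smallest possible 0.0286). In replicates 3 and 4 alone the difference was 0.18 with an adjusted p of 0.0495. Pkd2 was thus low in both groups, which does not test the passage labels. Pkd1, the partner of Pkd2, fell by 0.43 (adjusted p = 5.4e-06): it was at 56.3, 57.9, 57.3 and 59.5 CPM at passage 4 and 44.1, 46.2, 38.6 and 42.6 CPM at passage 7, with no overlap. Of 28 tested genes of polycystic and cystic disease, 2 rose and 10 fell (median -0.04). Cys1, which encodes the ciliary protein cystin, was at 30.6, 37.2, 17.98 and 16.96 CPM at passage 4 and 10.9, 15.8, 9.19 and 9.46 CPM at passage 7, a fall to below every passage 4 library (log2 -1.14). Pkhd1, the gene of autosomal recessive polycystic kidney disease, changed by -0.21 with overlapping libraries, and its call was lost without the set term (adjusted p = 0.248) and in replicates 3 and 4 alone (adjusted p = 0.156). The 2 that rose were Lrp5, a Wnt co-receptor (log2 0.32), and Anks6, a ciliary ankyrin-repeat protein (log2 0.43). Glis2, a nephronophthisis gene, differed by -0.03 (adjusted p = 0.662), and was called lower with the median change of each chromosome removed (-0.22, adjusted p = 0.000369).

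Of the 15 genes with the largest increase, the first was Scara5, a scavenger receptor for ferritin. It stood at 0.0766, 0.116, 0.257 and 0.241 CPM at passage 4 and 5.601, 7.21, 7.64 and 6.23 CPM at passage 7. Scara5 was near the detection limit in every passage 4 library and measurable in every passage 7 library (log2 5.25, SE 0.29). Dmrta1, a DMRT-family transcription factor gene, was at 0.6898, 1.28, 1.54 and 1.69 CPM at passage 4 and 15.3, 16.1, 30.3 and 24.3 CPM at passage 7 (log2 4.01). Pkp1, a desmosomal plakophilin, was at 2.299, 2.14, 2.14 and 2.33 CPM at passage 4 and 22.7, 16.5, 16.5 and 17.5 CPM at passage 7. S100a14, a calcium-binding S100 protein, was at 11.96, 9.68, 13.7 and 13.6 CPM at passage 4 and 86.8, 83.04, 80.97 and 87.02 CPM at passage 7, a 6.91-fold rise with little spread within groups. Fbln2, the matrix glycoprotein fibulin 2, was at 86.8, 88.6, 103 and 102 CPM at passage 4 and 463, 494, 418 and 414 CPM at passage 7. Ltbp2, a microfibril protein, rose from 2.54 ± 0.835 to 16.8 ± 1.12 CPM. Pparg, a nuclear receptor of lipid metabolism, rose from 1.29 ± 0.364 to 6.55 ± 1.02 CPM and Fabp5, an intracellular fatty acid carrier, from 2.71 ± 0.723 to 12.8 ± 1.72 CPM. Ptges, a prostaglandin E synthase, rose from 4.16 ± 1.72 to 20.01 ± 0.606 CPM. B4galnt2 and Mgat3, glycosyltransferases, rose by 2.62 and 2.26 on the log2 scale, and Kif21b, a kinesin, by 2.45. The remaining 3, Megf6 (2.54), Drp2 (2.53) and Mettl7b (2.32), were at 5.04 CPM or less in each passage 4 library. Among genes ranked by adjusted p, Ppp2r2c, a regulatory subunit of protein phosphatase 2A, was at 22.6, 20.5, 18.2 and 18.3 CPM at passage 4 and 85.2, 75.8, 63.7 and 73.3 CPM at passage 7 (adjusted p = 3.09e-14). Sorcs2, a sortilin-family receptor, rose from 94.9 ± 5.67 to 249 ± 16.8 CPM.

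**Figure D1:**
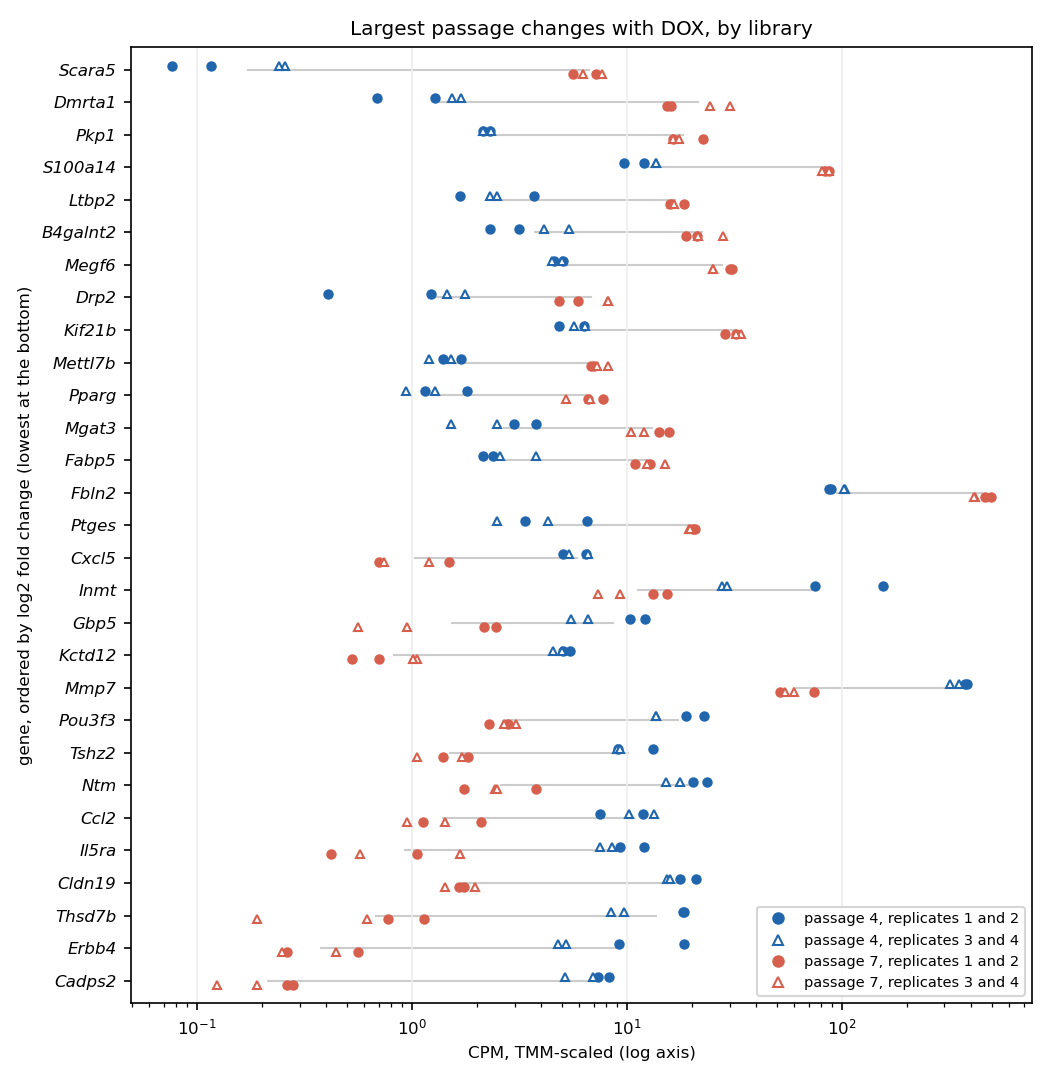
Level of the 15 genes with the largest increase and 14 of the 15 with the largest decrease at passage 7, in CPM on a log axis. Each point is 1 library (blue passage 4, red passage 7; circles replicates 1 and 2, triangles replicates 3 and 4) and a grey line joins the group means; for Scara5 the 4 passage 4 libraries lie at 0.257 CPM or less and the 4 passage 7 libraries at 5.6 CPM or more.

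Of the genes with the largest decrease, Cadps2, a priming factor of dense-core vesicles, was at 8.28, 7.36, 6.94 and 5.14 CPM at passage 4 and 0.263, 0.2801, 0.124 and 0.191 CPM at passage 7. Erbb4, a neuregulin receptor, was at 9.197, 18.4, 4.79 and 5.23 CPM at passage 4 and 0.263, 0.5601, 0.248 and 0.445 CPM at passage 7 and Thsd7b at 18.2, 18.4, 9.68 and 8.44 CPM at passage 4 and 1.14, 0.7701, 0.621 and 0.191 CPM at passage 7. All 3 were at 1.14 CPM or less in each passage 7 library. Cldn19, a claudin of the thick ascending limb, fell from 17.5 ± 2.46 to 1.703 ± 0.224 CPM. The summed level of the loop and distal tubule markers, mainly Cldn19, was 18.6 to 24.9 CPM at passage 4 and 6.27 to 7.18 CPM at passage 7. Trpm6, a magnesium channel and the other tested marker of that list, was called higher (log2 0.53), at 2.38, 3.25, 2.74 and 3.78 CPM at passage 4 and 4.73, 4.76, 4.16 and 4.07 CPM at passage 7, a call lost in 3 alternatives (adjusted p 0.0543 to 0.29). Mmp7, the secreted protease matrilysin, was at 381, 376, 317 and 352 CPM at passage 4 and 74.5, 51.5, 59.9 and 54.4 CPM at passage 7 (log2 -2.57, SE 0.10). Pou3f3, a transcription factor of the developing nephron, fell from 17.3 ± 4.44 to 2.699 ± 0.323 CPM. The chemokines Ccl2, which recruits monocytes, and Cxcl5, which recruits neutrophils, fell by 2.97 and 2.52 on the log2 scale. Il5ra, an interleukin 5 receptor gene, fell by 3.28. Gbp5, an interferon-induced GTPase, was at 10.3, 12.1, 5.48 and 6.59 CPM at passage 4 and 2.45, 2.17, 0.559 and 0.953 CPM at passage 7. Ntm, an adhesion protein, Tshz2, a zinc finger protein, and Kctd12, an auxiliary subunit of GABA-B receptors, changed by -2.84, -2.75 and -2.56. Inmt, an N-methyltransferase, was at 74.7, 156, 27.8 and 29.2 CPM at passage 4 and 15.4, 13.2, 9.31 and 7.305 CPM at passage 7: the groups did not overlap, but passage 4 replicates 1 and 2 lay above 3 and 4, and in replicates 1 and 2 alone the call was lost (adjusted p = 0.0786). By adjusted p, Srd5a1, the steroid 5-alpha-reductase 1, stood out with a narrow spread, at 326, 315, 309 and 313 CPM at passage 4 and 133, 121, 126 and 125 CPM at passage 7. Cdh16, the kidney-specific cadherin of tubule epithelium, fell from 334 ± 15.1 to 167 ± 4.16 CPM (log2 -1.0).

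Interferon-stimulated genes were lower at passage 7 across most of the list. These genes are switched on when interferon receptors signal to transcription factors that bind the interferon-stimulated response element. The promoters of Gbp2, Isg15 and Ifit3 are shown because all 3 genes fell and carry the letters of that element: the 250 bases before the RefSeq start (GRCm38.p6), with matches to GAAANNGAAA on either strand in capitals. They lie at chr3:142620413-142620662 on the + strand for Gbp2, chr4:156200819-156201068 on the - strand for Isg15 and chr19:34583279-34583528 on the + strand for Ifit3.
Gbp2: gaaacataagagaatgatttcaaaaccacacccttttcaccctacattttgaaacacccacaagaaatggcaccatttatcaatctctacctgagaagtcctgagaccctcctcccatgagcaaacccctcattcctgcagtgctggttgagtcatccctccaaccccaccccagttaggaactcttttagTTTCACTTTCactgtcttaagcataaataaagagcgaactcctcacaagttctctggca
Isg15: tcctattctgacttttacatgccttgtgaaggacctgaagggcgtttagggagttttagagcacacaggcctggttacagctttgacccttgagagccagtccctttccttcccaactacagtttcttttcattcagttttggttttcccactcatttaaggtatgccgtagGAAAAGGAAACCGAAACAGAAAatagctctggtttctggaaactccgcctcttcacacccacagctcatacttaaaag
Ifit3: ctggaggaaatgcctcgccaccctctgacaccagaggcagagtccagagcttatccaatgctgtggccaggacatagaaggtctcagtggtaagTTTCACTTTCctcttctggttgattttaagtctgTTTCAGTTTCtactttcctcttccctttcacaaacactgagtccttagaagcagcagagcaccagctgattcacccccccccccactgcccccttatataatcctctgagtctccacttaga
Gbp2 holds 1 match, starting 59 bases before the start. Isg15 holds 3, which overlap each other, and Ifit3 holds 2. Of 30 listed genes with a RefSeq window (250 bases before to 50 after the start), 18 (60.0%) held the letters, against 944 of 27025 windows of all genes (3.49%). The list was chosen as interferon-stimulated genes, so this share does not bear on the passage change. Of the 26 with a window that fell, 17 held the letters. A match describes letters and was not tested as a site.

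Of 41 listed interferon-stimulated genes, 40 were tested, of which 34 fell and 1 rose (median log2 -0.69, against -0.004 for all tested genes), and 29 had all passage 7 libraries below all passage 4 libraries. Among all tested genes 22.0% fell and 14.8% were separated in this way. Gbp2, an interferon-induced GTPase (ENSMUSG00000028270), was at 797, 834, 435 and 447 CPM at passage 4 and 260.1, 280.2, 151 and 136 CPM at passage 7. Replicates 1 and 2 were higher than 3 and 4 at both passages, and passage 7 was lower within each set (log2 -1.60 in replicates 1 and 2, -1.62 in 3 and 4), 3.04-fold in all (adjusted p = 3.02e-15). Iigp1, another interferon-induced GTPase, was at 1065, 1045, 746 and 744 CPM at passage 4 and 389, 424, 251 and 239 CPM at passage 7 and Gbp3 at 251, 252, 181 and 173 CPM at passage 4 and 110.0, 118, 61.1 and 61.7 CPM at passage 7. Ifit3, an antiviral RNA-binding protein, was at 315, 403, 250.4 and 257 CPM at passage 4 and 96.8, 115, 75.3 and 56.4 CPM at passage 7 (log2 -1.85, adjusted p = 4.98e-05). Isg15, a ubiquitin-like modifier, was at 47.3, 47.99, 52.2 and 47.8 CPM at passage 4 and 24.1, 25.1, 20.7 and 17.15 CPM at passage 7, with both sets alike at passage 4. Oasl1, a negative regulator of interferon synthesis, was the 1 that rose, at 103, 86.5, 107 and 106 CPM at passage 4 and 165, 173, 165 and 156 CPM at passage 7. With the median change of each chromosome removed, 35 fell and 1 rose (median -0.82).

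Antigen presentation fell with it by smaller amounts. Of 21 tested genes of MHC antigen presentation, 14 fell and 1 rose (median -0.37). Psmb10, an immunoproteasome subunit, was at 96.4, 85.6, 81.2 and 76.8 CPM at passage 4 and 51.3, 47.96, 39.4 and 35.3 CPM at passage 7, and Tap2, a subunit of the peptide transporter, fell from 176 ± 20.1 to 106 ± 16.2 CPM. The class I heavy chain H2-K1 was at 3866, 3973, 3624 and 3433 CPM at passage 4 and 3092, 3003, 2792 and 2651 CPM at passage 7 and its light chain B2m at 2687, 2791, 2598 and 2570.4 CPM at passage 4 and 2162, 2162, 2052 and 2145 CPM at passage 7, decreases of small size with no overlap. Cd74, the class II invariant chain, was the 1 called higher (log2 0.15), with overlapping libraries and with adjusted p from 0.0529 to 0.377 in the 5 alternatives that ended its call. Between the replicate sets, 17 of 40 interferon-stimulated and 16 of 21 antigen presentation genes were lower in replicates 3 and 4 and none was higher. NF-kB targets, chemokines and acute phase genes were mixed, with 5 of 26 tested genes higher, 10 lower and a median of -0.08, which was 0.03 in replicates 1 and 2 alone and -0.33 in replicates 3 and 4 alone. Icam1, a leukocyte adhesion molecule, was at 105, 86.7, 77.5 and 79.5 CPM at passage 4 and 43.7, 36.8, 28.9 and 29.2 CPM at passage 7. Lcn2, the injury marker lipocalin 2, was higher at passage 7 within each set, at 1233, 1107, 1833 and 1772 CPM at passage 4 and 1933, 1735, 2577 and 2593 CPM at passage 7, and its call was lost without the set term (adjusted p = 0.0534). Csf1, the macrophage growth factor, rose from 107 ± 4.16 to 128 ± 5.64 CPM. Of the leukocyte markers in the sums given above, Cd68 rose from 8.63 ± 2.19 to 15.4 ± 1.29 CPM and Csf1r was at 12.6, 22.9, 14.9 and 13.3 CPM at passage 4 and 20.7, 27.8, 22.3 and 25.3 CPM at passage 7 (adjusted p = 0.051). Csf1r was called in 11 alternatives, among them the block by replicate number (adjusted p = 0.000224) and the fit without passage 4 replicate 2 (1.8e-06). Ptprc, the pan-leukocyte marker CD45, was too low to be tested, with 10, 23, 12 and 9 counts at passage 4 and 0, 0, 2 and 2 counts at passage 7. The part of leukocytes in the immune lists was not tested.

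**Figure D2:**
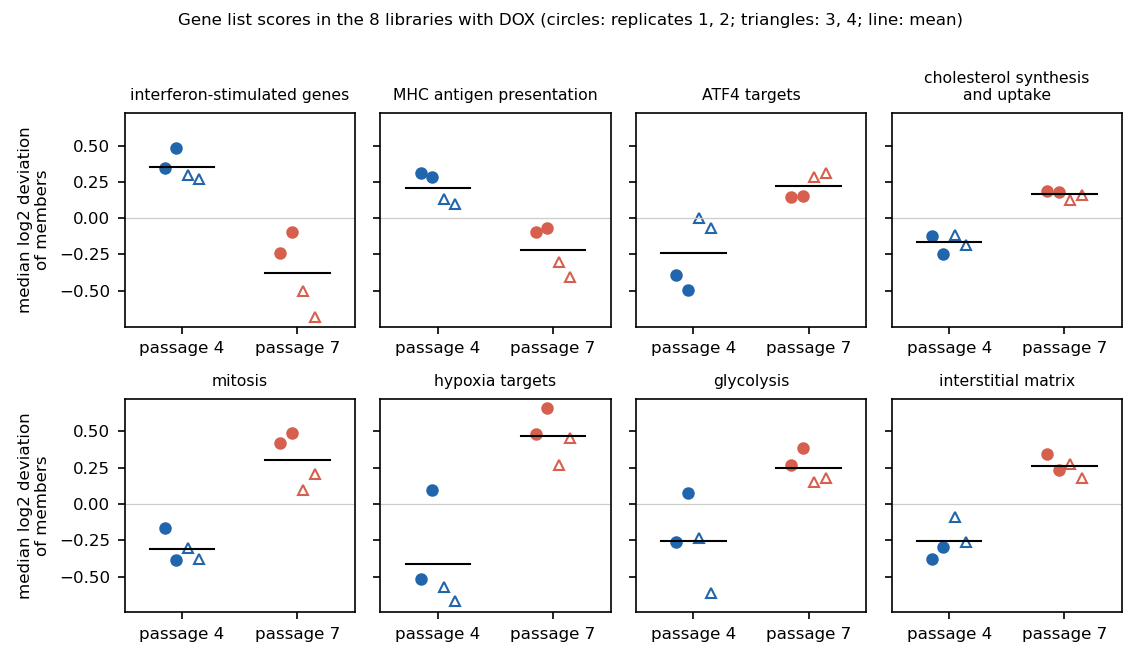
Median over the tested members of each list of log2(CPM + 1) minus the gene's mean over the 8 libraries, 1 point per library, with the group mean as a line. For interferon-stimulated genes the passage 4 libraries lie between 0.27 and 0.49 and the passage 7 libraries between -0.68 and -0.09; for hypoxia targets and glycolysis, passage 4 replicate 2 (0.10 and 0.07) lies above the other passage 4 libraries.

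Targets of ATF4 moved the other way. ATF4 is translated when the kinases of the integrated stress response phosphorylate eIF2-alpha, and it binds C/EBP-ATF response elements in genes of amino acid supply, one-carbon metabolism and stress. The promoters of Asns and Atf3, targets long used to study this element, are shown with matches to TGATGNAA on either strand in capitals, from chr6:7693210-7693459 and chr1:191183334-191183583, both on the - strand (RefSeq, GRCm38.p6).
Asns: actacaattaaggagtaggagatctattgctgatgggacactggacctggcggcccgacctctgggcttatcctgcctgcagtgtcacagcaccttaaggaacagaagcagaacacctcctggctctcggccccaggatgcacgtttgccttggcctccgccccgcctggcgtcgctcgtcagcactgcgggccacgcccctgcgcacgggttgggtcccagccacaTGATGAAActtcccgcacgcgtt
Atf3: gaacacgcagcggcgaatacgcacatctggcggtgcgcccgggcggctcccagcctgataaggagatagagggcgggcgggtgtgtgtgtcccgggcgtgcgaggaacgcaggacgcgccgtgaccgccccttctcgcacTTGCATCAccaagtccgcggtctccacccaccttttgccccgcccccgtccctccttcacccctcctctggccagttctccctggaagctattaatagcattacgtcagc
The match in Asns starts 23 bases and that in Atf3 110 bases before the start. Among 25 listed genes with a window, 9 (36.0%) held the letters, against 1096 of all 27025 windows (4.06%). The list was chosen as ATF4 targets, so this share does not bear on the passage change. Of the 20 with a window that rose, 7 held the letters.

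Of 32 tested ATF4 targets, 26 rose and none fell (median log2 0.46), and 19 had all passage 7 libraries above all passage 4 libraries. Among all tested genes 24.6% rose and 18.0% were separated in this way. Aldh1l2, a mitochondrial enzyme of folate metabolism, was at 48.7, 54.5, 81.1 and 67.8 CPM at passage 4 and 188, 211, 258 and 253 CPM at passage 7 (log2 1.86, SE 0.06, adjusted p = 3.12e-13). Stc2, the secreted stanniocalcin 2, was at 41.8, 41.7, 44.4 and 44.5 CPM at passage 4 and 87.96, 91.3, 100.2 and 96.1 CPM at passage 7, and Cth, which makes cysteine, at 37.6, 43.5, 55.7 and 59.2 CPM at passage 4 and 92.9, 87.9, 111 and 110.4 CPM at passage 7. Both rose at least 2-fold, with no overlap between passages. Psph, the last enzyme of serine synthesis, was at 37.7, 34.7, 49.2 and 50.3 CPM at passage 4 and 65.6, 68.5, 79.7 and 82.2 CPM at passage 7. Ddit3, the transcription factor CHOP, was at 62.8, 67.8, 86.3 and 78.5 CPM at passage 4 and 125, 126, 129 and 129 CPM at passage 7, and Atf4 itself at 382, 361, 512 and 473 CPM at passage 4 and 573, 553, 679 and 678 CPM at passage 7. Asns, asparagine synthetase, was at 275, 258, 357 and 334 CPM at passage 4 and 396, 397, 431 and 427 CPM at passage 7, and Trib3, a pseudokinase that dampens ATF4, at 91.4, 82.6, 166 and 144 CPM at passage 4 and 202, 199.7, 247 and 254 CPM at passage 7. Atf3, a stress-induced transcription factor, was at 29.97, 25.6, 55.8 and 61.8 CPM at passage 4 and 44.9, 41.4, 103 and 88.2 CPM at passage 7, where replicates 3 and 4 lay above 1 and 2 at both passages. The groups of Atf3 overlapped and its call was lost without the set term (adjusted p = 0.214). Within the list, 21 genes were higher in replicates 3 and 4 than in 1 and 2.

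Related stress genes were split. Chaperones and proteases of mitochondria had 7 members higher and 1 lower of 15 (median 0.09). Lonp1, the matrix protease, was at 237, 226, 323 and 299 CPM at passage 4 and 419.8, 438, 448 and 455 CPM at passage 7. Hspa9, the matrix HSP70, was at 914, 896, 1167 and 1099 CPM at passage 4 and 1325, 1325, 1453 and 1438 CPM at passage 7, and Dnaja3, its co-chaperone, rose from 103 ± 3.93 to 158 ± 2.77 CPM. Yme1l1, an inner-membrane protease, fell from 179.5 ± 8.97 to 156 ± 7.09 CPM. Endoplasmic reticulum chaperones and unfolded protein response genes fell more often, 10 lower and 4 higher of 22 (median -0.13). Calr, the lumenal chaperone calreticulin, was at 830.0, 827, 757 and 807 CPM at passage 4 and 675, 674, 550.4 and 556 CPM at passage 7 and Pdia3, a disulphide isomerase, fell by 0.31 on the log2 scale. Ero1l, the oxidase of disulphide formation and a known hypoxia target, rose by 1.36 and Herpud1, of ER-associated degradation, by 0.37. Of 13 cytosolic heat shock genes, 3 rose and 3 fell. Among 56 cytosolic ribosomal protein genes, 24 rose and 1 fell, by small amounts (median 0.10). Rpl5 (0.47) and Rpl30 (0.39) rose, and Rps28 (-0.13) was called lower with overlapping libraries and lost its call in 7 alternatives. With the median change of each chromosome removed, Rpl5 changed by 0.22 and Rpl30 by 0.18, and the median of the list was 0.14. In this list 51 genes were higher in replicates 3 and 4 than in 1 and 2.

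Cell cycle genes were higher at passage 7. All 20 tested mitosis genes rose (median 0.61). Tpx2, a spindle assembly factor, was at 44.2, 35.9, 37.2 and 37.1 CPM at passage 4 and 75.9, 72.04, 61.3 and 61.9 CPM at passage 7, Cenpe, a kinetochore motor, at 30.4, 30.5, 21.7 and 19.7 CPM at passage 4 and 48.1, 49.8, 34.6 and 36.3 CPM at passage 7, and Cdk1, the mitotic kinase, at 35.6, 31.9, 37.8 and 35.3 CPM at passage 4 and 57.1, 55.8, 51.5 and 50.2 CPM at passage 7. The levels were modest. All passage 7 libraries lay above all passage 4 libraries for 16 of the 20, beside 18.0% of all tested genes. Bub1b, of the spindle checkpoint, rose from 16.5 ± 2.501 to 26.8 ± 3.599 CPM. Of 20 DNA replication genes, 15 rose and 1 fell (median 0.32). Mcm7 and Mcm2, subunits of the replicative helicase, rose by 0.54 and 0.43, and Rrm1, of ribonucleotide reductase, by 0.38. Gins2, a helicase cofactor, fell by 0.34. Among 22 p53 targets and cell cycle inhibitors 9 rose and 6 fell (median 0.11). Cdkn1c, the inhibitor p57, was at 3.602, 4.46, 4.62 and 2.97 CPM at passage 4 and 10.1, 13.4, 16.5 and 18.8 CPM at passage 7. Cdkn1a, the inhibitor p21, was lower within each set, at 595, 604, 497 and 493 CPM at passage 4 and 507, 506, 432 and 420.1 CPM at passage 7, and its call was lost without the set term (adjusted p = 0.0697). Perp, a desmosomal p53 target, rose from 200.3 ± 9.37 to 271 ± 7.03 CPM.

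Hypoxia targets had the largest median of the lists with 15 or more tested genes. HIF-1 raises glycolytic enzymes, lactate export and pH regulation when oxygen is low. Of 21 tested hypoxia targets, 17 rose and 1 fell (median 0.94), and of 22 glycolysis genes 13 rose and 3 fell (median 0.48). Ndrg1, a stress-induced gene, was at 186, 292, 217 and 180.0 CPM at passage 4 and 589, 698, 568 and 605 CPM at passage 7. Car12, a carbonic anhydrase, was at 17.4, 26.3, 25.2 and 26.9 CPM at passage 4 and 41.2, 42.5, 57.2 and 53.2 CPM at passage 7, and Hilpda, a lipid droplet protein, at 12.7, 13.4, 15.2 and 15.7 CPM at passage 4 and 24.2, 24.99, 28.4 and 26.8 CPM at passage 7. The groups did not overlap for these genes, and passage 4 replicate 2 was the highest of its group for Ndrg1. In replicates 1 and 2 alone the call of Ndrg1 was lost (log2 1.42, adjusted p = 0.0791). Gapdh was at 1341, 1606, 1416 and 1087 CPM at passage 4 and 2305, 2398, 2226 and 2179 CPM at passage 7. Ldha, lactate dehydrogenase A, was at 827, 1156, 936 and 545 CPM at passage 4 and 1660.1, 1717, 1468 and 1480.4 CPM at passage 7, and its call was lost in 5 alternatives (adjusted p 0.0501 to 0.189). Pfkm, the muscle-type phosphofructokinase, and Slc16a1, a lactate transporter, rose by 0.49 and 0.65. Hif1a, the oxygen-regulated subunit, rose from 131 ± 7.73 to 168 ± 6.22 CPM. Plin2, a lipid droplet coat protein, was the hypoxia target that fell, from 164 ± 11.9 to 132 ± 1.98 CPM. Ldhb (log2 -0.32) and Hk1 (-0.18) were lower, the call of Hk1 being lost without the set term (adjusted p = 0.12).

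Cholesterol synthesis rose as a group. SREBP2 controls the genes of this pathway and the LDL receptor. The letters of the sterol regulatory element, TCACNCCAC, were also looked for in the promoter windows. Of 17 listed genes with a window, 1 (5.9%) held them, against 330 of 27025 windows of all genes (1.22%). All 25 listed genes were tested, and 15 rose and none fell (median 0.41). Sqle, which makes squalene epoxide, was at 66.4, 55.8, 63.4 and 60.9 CPM at passage 4 and 117, 108, 114 and 111 CPM at passage 7. Lss, the next enzyme, was at 27.9, 26.4, 29.1 and 30.9 CPM at passage 4 and 44.5, 46.6, 51.6 and 48.3 CPM at passage 7, and Cyp51, which removes a methyl group from lanosterol, at 47.9, 39.9, 50.4 and 47.1 CPM at passage 4 and 77.02, 74.8, 81.5 and 76.1 CPM at passage 7. None of these overlapped between passages. Msmo1, the following oxidase, rose from 77.2 ± 8.74 to 116 ± 6.31 CPM. Fatty acid synthesis and desaturation had 7 higher and 2 lower of 16 (median 0.12). Acsl3, an acyl-CoA synthetase, rose by 0.69 and Fads2, a desaturase, by 0.32. Of 27 NRF2 and glutathione genes, 6 rose and 10 fell (median -0.04). Gsr, glutathione reductase, was at 267, 291, 236 and 248 CPM at passage 4 and 207, 185, 186 and 183 CPM at passage 7, and Pgd, of the pentose phosphate pathway, fell by 0.35.

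Interstitial matrix genes were mostly higher. Of 24 listed, 18 were tested, 12 rose and 2 fell (median 0.69). Fn1, fibronectin, was at 660.4, 661, 661 and 719.7 CPM at passage 4 and 1109, 1269.6, 951 and 987 CPM at passage 7 (log2 0.67, adjusted p = 8.2e-06). Sparc, a matrix glycoprotein, was at 2.99, 3.36, 4.54 and 3.22 CPM at passage 4 and 16.02, 11.4, 11.8 and 11.5 CPM at passage 7, and the collagen chain Col6a1 at 0.6898, 0.696, 1.46 and 1.04 CPM at passage 4 and 5.08, 4.41, 3.54 and 4.13 CPM at passage 7. Col5a1 rose from 0.221 ± 0.138 to 1.69 ± 0.462 CPM. The microfibril genes Fbn1 (-2.12) and Efemp1 (-1.45) were the 2 that fell, at about 1 CPM at passage 4, and the call of Efemp1 was lost in replicates 1 and 2 alone (adjusted p = 0.0529). Dcn, a fibroblast marker, rose from 0.897 ± 0.295 to 3.42 ± 1.14 CPM beside the fibroblast marker sums given above, and the part of other cells in the matrix values was not tested. Basement membrane genes were mixed, 6 higher and 5 lower of 19. Nid1, nidogen 1, was at 14.9, 14.4, 12.7 and 14.95 CPM at passage 4 and 3.85, 4.901, 3.17 and 3.303 CPM at passage 7, all passage 7 libraries far below passage 4. Agrn, the proteoglycan agrin, fell by 0.29 with overlapping libraries. Npnt, nephronectin, rose from 83.2 ± 8.299 to 119 ± 5.12 CPM and Col4a3, a type IV collagen chain, from 41.4 ± 3.85 to 58.6 ± 4.66 CPM. TGF-beta response genes had 10 higher and 3 lower of 23 (median 0.15). Bmp7, a growth factor of tubule epithelium, was at 27.4, 28.7, 31.7 and 25.3 CPM at passage 4 and 86.3, 81.1, 76.4 and 77.2 CPM at passage 7. Bmp4 rose from 1.71 ± 0.404 to 6.07 ± 0.905 CPM. Tgfbr2, the type II receptor, fell from 529 ± 62.1 to 318 ± 22.4 CPM.

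Adhesion genes fell more often than they rose. Of 26 integrin and focal adhesion genes, 13 fell and 7 rose (median -0.16). Itga1, a collagen receptor chain, was at 59.3, 68.2, 52.8 and 49.6 CPM at passage 4 and 23.02, 21.3, 16.2 and 21.6 CPM at passage 7, and Itga3, a laminin receptor chain of tubule epithelium, at 1924, 1724, 1938 and 2091 CPM at passage 4 and 1339, 1281, 1229.7 and 1203 CPM at passage 7. Itgb8, which activates TGF-beta, fell by 1.26. Itga5, the fibronectin receptor chain, rose from 15.4 ± 2.48 to 27.99 ± 1.3 CPM, Itgb5 from 216 ± 9.87 to 298 ± 11.7 CPM and Ptk2, focal adhesion kinase, from 115 ± 10.2 to 167 ± 13.6 CPM. Metalloproteinases and their inhibitors had 7 higher and 1, Mmp7, lower of 16. Mmp15, a membrane-bound protease, rose by 1.15, and Timp3, a matrix-bound inhibitor, was at 273, 290.3, 334 and 353 CPM at passage 4 and 481, 519.9, 544 and 534 CPM at passage 7. Of 25 epithelial junction genes, 7 rose and 10 fell (median -0.10). Cdh6, the cadherin of early nephron epithelium, was at 206, 185, 172 and 208 CPM at passage 4 and 106, 104, 102 and 106 CPM at passage 7, with little spread at passage 7. The desmosomal cadherin Dsc2 fell by 0.96, while the plakophilin Pkp2 rose by 0.47 and the claudin Cldn3 by 0.52. Of 26 listed squamous and stratified epithelium genes, 11 were tested, and 5 rose and 4 fell (median 0.70). Anxa8, an annexin, was at 10.9, 9.74, 10.7 and 11.4 CPM at passage 4 and 43.1, 42.6, 40.5 and 44.97 CPM at passage 7, and the keratin Krt80 rose by 1.07, while Sbsn, suprabasin, fell by 1.02. Krt19 was at 653, 674, 684 and 618 CPM at passage 4 and 1084, 1038, 1054 and 1041 CPM at passage 7, and Krt20, the keratin of superficial urothelium, at 824, 747, 942 and 946 CPM at passage 4 and 559.7, 495, 592 and 571 CPM at passage 7. Krt8 and Krt18 rose by 0.53 and 0.49. Tubular injury and repair genes had 6 higher and 7 lower of 22. Havcr1, the injury marker KIM-1, was at 2.22, 1.74, 2.83 and 2.09 CPM at passage 4 and 0.438, 0.9802, 0.869 and 0.572 CPM at passage 7 and Prom1, the progenitor marker CD133, at 1191, 1364, 893 and 949.5 CPM at passage 4 and 911, 843, 731 and 710.1 CPM at passage 7, where the groups overlapped. Plau, the urokinase protease, fell from 1149 ± 79.4 to 686 ± 57.8 CPM.

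Transport genes of the collecting duct moved in both directions. Sodium and water transport had 5 higher and 9 lower of 18 tested genes (median -0.13). Scnn1a, the alpha subunit of the epithelial sodium channel, was at 122, 149.9, 135 and 143 CPM at passage 4 and 177, 196, 225 and 202 CPM at passage 7. Scnn1b, the beta subunit, was at 1.46, 3.36, 1.28 and 1.69 CPM at passage 4 and 0.263, 0.5601, 0.3105 and 0.572 CPM at passage 7, so that the alpha subunit rose while the beta subunit fell. Nr3c2, the mineralocorticoid receptor, fell from 59.3 ± 9.32 to 40.5 ± 4.39 CPM. Of 25 chloride, bicarbonate and potassium transport genes, 11 rose and 8 fell (median -0.02). Kcnj16, a basolateral potassium channel subunit, was at 173, 199, 152 and 140.1 CPM at passage 4 and 80.2, 68.3, 63.95 and 70.3 CPM at passage 7. Slc4a4, a sodium bicarbonate cotransporter, rose from 160.1 ± 2.96 to 243 ± 26.5 CPM and Kcnj15, a potassium channel, from 2.63 ± 0.137 to 7.47 ± 1.72 CPM. Cftr, the chloride channel of cyst fluid secretion, rose from 2.42 ± 0.375 to 4.09 ± 0.343 CPM, and its call was lost in replicates 3 and 4 alone (adjusted p = 0.0708). Atp6v0d2, a proton pump subunit and the tested intercalated cell marker, was at 16.5, 27.99, 12.8 and 12.9 CPM at passage 4 and 6.65, 5.25, 4.84 and 6.16 CPM at passage 7. Genes of calcium stores and entry were even, 10 higher and 8 lower of 23 (median 0.01). Trpv6, an apical calcium channel, was at 0.996, 1.56, 2.48 and 2.17 CPM at passage 4 and 6.21, 5.95, 7.89 and 8.004 CPM at passage 7. Piezo1, a mechanosensitive channel, was at 438, 453, 395 and 445 CPM at passage 4 and 333, 346, 316 and 320.0 CPM at passage 7, a decrease without overlap. Trpv4, a flow-sensitive channel, rose by 0.32, a call lost with chromosome medians removed (0.08, adjusted p = 0.153). Cyclic AMP signalling had 6 higher and 5 lower of 19.

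Among signalling lists, Wnt genes rose more often than they fell. Of 24 Wnt genes, 10 rose and 3 fell (median 0.17). Wnt7b, the ligand of the collecting duct stalk, was at 481, 474, 487 and 473 CPM at passage 4 and 644, 626, 643 and 619 CPM at passage 7. Wnt7a was at 94.9, 91.9, 118 and 115 CPM at passage 4 and 204, 216, 192 and 194 CPM at passage 7 and Wnt9a, a relative of the ureteric bud signal, at 11.6, 12.3, 14.04 and 13.2 CPM at passage 4 and 26.4, 26.9, 32.2 and 27.8 CPM at passage 7. All 3 ligands rose without overlap. The receptor Fzd1 rose by 0.64, and the secreted Dkk3 fell by 1.11 with overlapping libraries. Of 26 EGF receptor ligand and MAPK feedback genes, 5 rose and 12 fell (median -0.15). The median of this list was 0.004 in replicates 1 and 2 alone and -0.29 in replicates 3 and 4 alone. Egfr, the receptor, was at 131, 131, 121 and 137 CPM at passage 4 and 92.6, 100.3, 89.6 and 89.9 CPM at passage 7. YAP targets were split, 6 higher and 7 lower of 22 (median -0.09). Nt5e, the ectonucleotidase CD73, was at 20.7, 24.1, 22.4 and 19.5 CPM at passage 4 and 60.1, 65.3, 61.3 and 65.2 CPM at passage 7, and Ccn1, a matricellular target, rose from 100.4 ± 15.4 to 168 ± 30.2 CPM. Tead1, the transcription factor partner of YAP, was at 238, 252, 207 and 238 CPM at passage 4 and 155, 184, 146 and 156 CPM at passage 7 and Axl, a receptor kinase, fell from 253 ± 21.1 to 139 ± 15.9 CPM. Immediate early genes had 5 higher and 2 lower of 22, and 10 of them were higher in replicates 3 and 4.

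Of 19 tested transcription factors of kidney identity, 2 rose and 6 fell (median -0.09), beside 22.0% lower among all tested genes. Pax8, a regulator of nephric lineage, was at 210.5, 226, 235 and 233 CPM at passage 4 and 174, 184, 189.7 and 178 CPM at passage 7, and Ehf, an epithelial ETS factor, fell from 299.5 ± 29.9 to 238 ± 10.2 CPM. Elf3, another epithelial ETS factor, was higher within each set, at 168, 198, 104 and 109 CPM at passage 4 and 233, 238, 161 and 171 CPM at passage 7, and lost its call without the set term (adjusted p = 0.163). Hox cluster genes had 7 higher and 12 lower of 30. The Hoxb genes named here were taken from called members, up to 3 in each direction. Their directions therefore do not describe the Hoxb cluster as a whole. Hoxb7, expressed along the collecting duct, was at 80.2, 81.9, 69.95 and 63.5 CPM at passage 4 and 44.3, 41.3, 43.5 and 38.2 CPM at passage 7, and Hoxb5 and Hoxb2 fell by 0.74 and 0.73. Hoxb13, at the end of that cluster, rose from 0.421 ± 0.146 to 1.85 ± 0.668 CPM, and Hoxa9 from 57.6 ± 3.48 to 76.05 ± 7.54 CPM. Of 16 imprinted genes 5 rose and 4 fell, beside 24.6% and 22.0% of all tested genes. Peg3, a paternally expressed zinc finger gene, was at 88.4, 102, 68.5 and 93.2 CPM at passage 4 and 39.04, 44.6, 31.8 and 35.1 CPM at passage 7, and Plagl1 at 2.91, 4.35, 2.91 and 4.18 CPM at passage 4 and 6.56, 7.49, 11.4 and 11.6 CPM at passage 7. Clock genes had 6 higher and none lower of 17 (median 0.16). With the median change of each chromosome removed, 5 were higher and 2 lower (median 0.02). Nfil3, a repressor in the clock, was at 18.9, 18.95, 25.9 and 24.2 CPM at passage 4 and 42.4, 46.6, 61.3 and 54.6 CPM at passage 7, and Ciart, another repressor, rose from 11.3 ± 2.96 to 23.5 ± 4.43 CPM.

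Organelle lists changed little at the median. Among all tested genes 24.6% rose and 22.0% fell, and the counts of the cilium and respiratory chain lists lay near or below those shares. Primary cilium genes had 8 higher and 7 lower of 33 (median 0.05), and Ift172, an intraflagellar transport protein, was at 74.6, 77.2, 78.3 and 82.6 CPM at passage 4 and 133, 149, 133 and 133 CPM at passage 7. Lysosome and autophagy genes had 3 higher and 11 lower of 28 (median -0.06), with Ctsd, cathepsin D, at 1009, 1080.3, 1030.3 and 1007 CPM at passage 4 and 802, 748, 821 and 779 CPM at passage 7. Of 40 nuclear-encoded respiratory chain genes 5 rose and 11 fell (median -0.06), and 1 rose and 8 fell with the median change of each chromosome removed. Of 13 listed subunit genes of mitochondrial DNA, 7 were tested and 6 had too few counts. Of the genes of mitochondrial DNA tested, 4 of 7 subunit genes and 1 of 2 ribosomal RNAs were called lower and none higher. The mitochondrial share of counts given below holds few counts from the 6 subunit genes not tested. The replicate sets differed by more than the passages, with medians of 0.60 for the subunits and 1.04 for the ribosomal RNAs in replicates 3 and 4 minus 1 and 2, against -0.14 and -0.47 for passage 7 minus passage 4. Here mt-Rnr2, the large ribosomal RNA, was at 3871, 4174, 7283 and 6998 CPM at passage 4 and 2464, 2378, 5085 and 5474 CPM at passage 7, and mt-Nd5, a complex I subunit, at 1669.9, 1737, 2552 and 2849.8 CPM at passage 4 and 1206, 1258, 2130.2 and 2310.3 CPM at passage 7. Both calls were lost without the set term (adjusted p = 0.276 and 0.355). The mitochondrial share of counts was 2.48 ± 0.52% (SD, n = 4) at passage 4 and 2.07 ± 0.65% at passage 7 (exact 2-sided permutation test, p = 0.343). It was lower at passage 7 in 4 of 4 same-numbered pairs (exact 2-sided paired permutation test, p = 0.125, the smallest possible), a pairing that the labels do not state. The other lists were chromatin genes (8 higher, 4 lower of 20), complement and coagulation (6 and 5 of 16), metallothionein, zinc, iron and cold response (6 and 2 of 14), mesenchymal transition (4 and 4 of 13) and hedgehog (2 and none of 6). Flt1, the tested endothelial marker and a hypoxia-responsive gene, rose from 3.35 ± 0.312 to 7.94 ± 0.536 CPM.

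**Figure D3:**
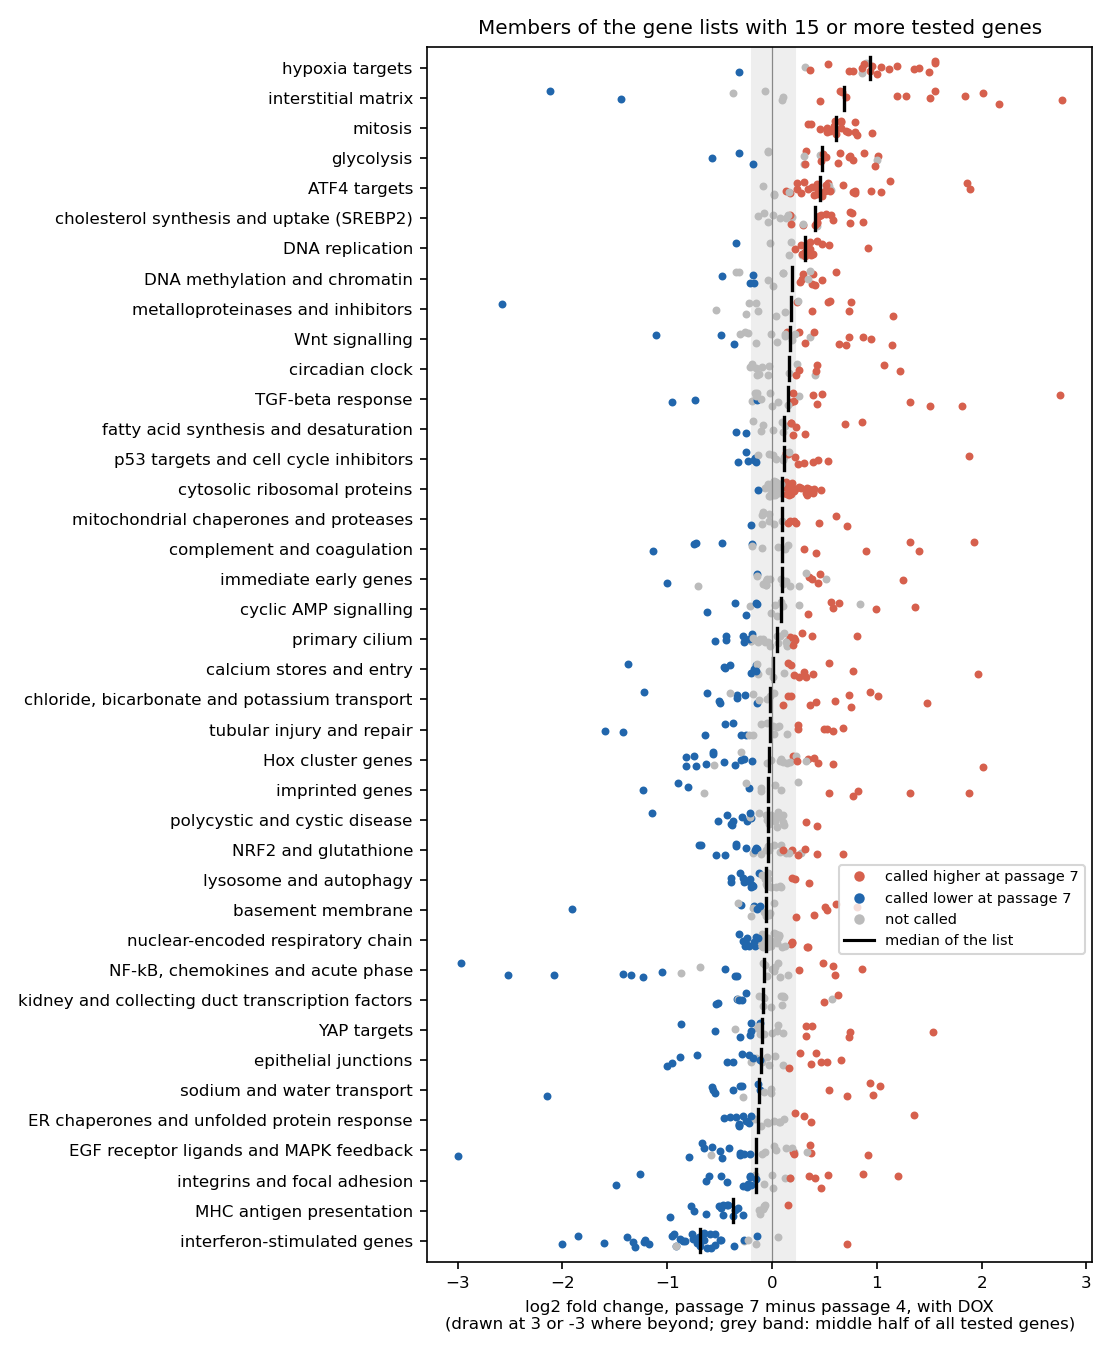
Log2 fold change, passage 7 minus passage 4 with DOX, of each tested member of the lists with 15 or more tested genes, ordered by the list's median (black bar). Red points are called higher, blue called lower and grey not called, and the grey band spans the quartiles of all tested genes (-0.19 to 0.22); hypoxia targets (median 0.94) stand at the top and interferon-stimulated genes (-0.69) at the bottom.

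Part of the passage change followed whole chromosomes. This was looked at after genes of some chromosomes were seen to move together, among the 11841 genes at 5 CPM or more in either group (median -0.004, 27.2% higher and 24.4% lower). On chromosome 5, 793 genes had a median log2 change of 0.26, with 66.7% called higher and 6.1% lower, and the median was positive in 8 of 8 windows of 20 Mb (0.16 to 0.29). The median level of its genes relative to their mean over the 8 libraries was -0.15 to -0.11 in the passage 4 libraries and 0.11 to 0.13 in the passage 7 libraries, so no library overlapped the other passage. Chromosomes 15 (median 0.22, 60.3% higher), 16 (0.20, 58.2%), 6 (0.18, 50.8%) and 10 (0.15, 47.3%) had the same direction in each of their windows. Medians were lowest on chromosomes 14 (-0.13, 41.6% lower), 13 (-0.13, 42.6%), 17 (-0.11, 37.4%) and 9 (-0.11, 38.5%). Without DOX, in libraries that share none with this comparison, the medians were 0.25 for chromosome 5, 0.22 for 15, 0.21 for 16, 0.13 for 6 and 0.08 for 10. The number of copies of each chromosome was not measured, and the cause of these shifts was not tested. With the median of each chromosome removed, 2994 genes were higher (20.1%) and 2830 lower (19%). Medians so treated were 0.41 for ATF4 targets, 0.31 for cholesterol synthesis, 0.65 for mitosis and 0.97 for hypoxia targets. Some named increases on chromosomes 5, 6 and 15 were smaller so treated: Mcm7 went from 0.54 to 0.30, Mcm2 from 0.43 to 0.26, Pfkm from 0.49 to 0.27 and Atf4 from 0.53 to 0.32. Pkd2 lies on chromosome 5, and its difference so treated was -0.14 (adjusted p = 0.0755).

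**Figure D4:**
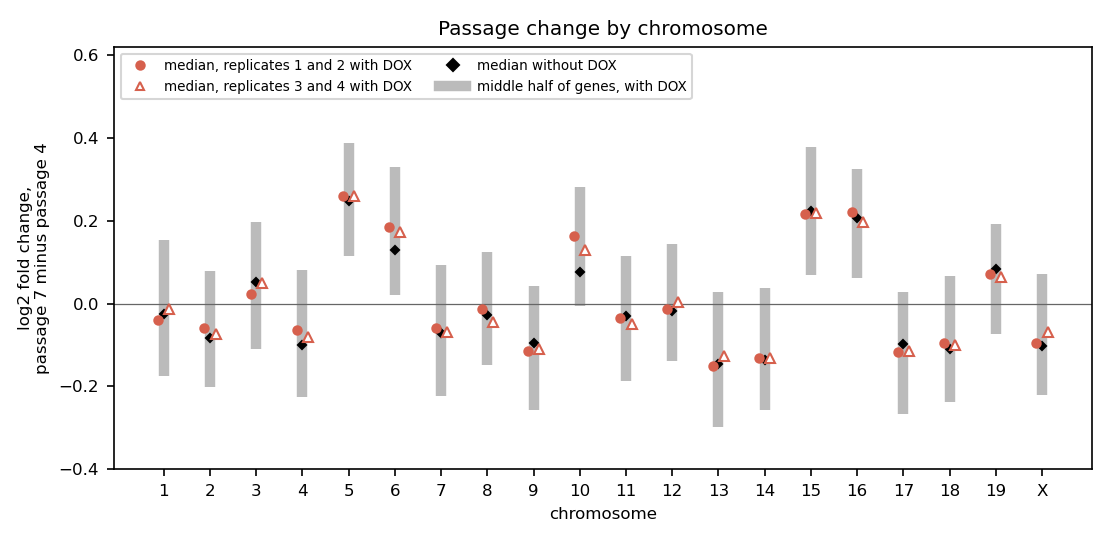
Log2 fold change, passage 7 minus passage 4, of genes at 5 CPM or more in either group, by chromosome: red symbols are medians with DOX in replicates 1 and 2 (circles) and 3 and 4 (triangles), black diamonds medians without DOX, and grey bars the quartiles with DOX. Chromosomes 5, 15, 16, 6 and 10 have the highest medians with DOX (0.26 to 0.15), and both replicate sets lie close together on each.

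Many genes differed between the passages in the same direction without DOX, in 8 libraries that the comparison with DOX does not use. In 1 fit of all 16 libraries (15316 genes), 3642 genes rose (23.8%) and 3405 fell (22.2%) with passage in the presence of DOX, and 3084 rose (20.1%) and 2773 fell (18.1%) in its absence. Of these, 2305 rose in both (63.3% of those with DOX and 74.7% of those without), 1890 fell in both (55.5% and 68.2%) and 89 were called in opposite directions. The difference between the passage changes was tested as an interaction. It was more positive with DOX for 339 genes (2.21%) and more negative for 482 (3.15%). These counts were 79 and 104 without the set term, and 203 genes were more positive when passage 4 without DOX replicate 1 was left out. Among ATF4 targets 16 of 31 were more positive with DOX and none more negative, with medians of 0.44 with and 0.12 without DOX. Among interferon-stimulated genes 12 of 40 were more negative and none more positive (medians -0.70 and -0.34), and among antigen presentation genes 7 of 21 (medians -0.37 and -0.19). Of 25 cholesterol genes 5 were more positive (0.42 and 0.17), of 20 mitosis genes 1 (0.61 and 0.41) and of 22 hypoxia targets 2 (0.94 and 0.68). For cytosolic ribosomal proteins 8 of 56 were more positive, with medians of 0.09 with and -0.13 without DOX.

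The genes with the smallest adjusted p for this difference included Sat1, which acetylates polyamines and rose by 0.96 with DOX against 0.24 without (difference 0.72, adjusted p = 4.85e-07). With DOX it was at 173, 185, 190.3 and 189 CPM at passage 4 and 336, 343, 381 and 379 CPM at passage 7. Angptl6, a secreted angiopoietin-like protein, changed by 1.27 with and -0.47 without DOX, Myo3b, an unconventional myosin, by 1.56 and 0.33, and Reep6, an endoplasmic reticulum shaping protein, by 1.08 and 0.34. With DOX, Angptl6 was at 9.12, 11.2, 16.3 and 12.6 CPM at passage 4 and 23.4, 27.5, 36.5 and 30.9 CPM at passage 7. More negative changes with DOX were found for Chpf, of chondroitin sulphate synthesis (-0.72 against 0.14), St3gal1, a sialyltransferase (-0.75 against -0.09), Cdh6 (-0.88 against -0.10) and Glis2 (-0.03 against 0.57). Sema3c, a secreted guidance protein, was at 1326, 1339, 1116 and 1109.7 CPM at passage 4 and 1083, 1041, 884 and 848 CPM at passage 7 with DOX, and changed by -0.34 with against 0.33 without DOX. Timp3 and Fn1 rose with DOX (0.74 and 0.67) against -0.53 and -0.16 without. For Kcnj16 and Cys1 the changes were -1.22 and -1.14 with DOX against -0.31 and 0.03 without. For Pkd2 the difference of the passage changes was -0.29 (adjusted p = 0.0553).

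**Figure D5:**
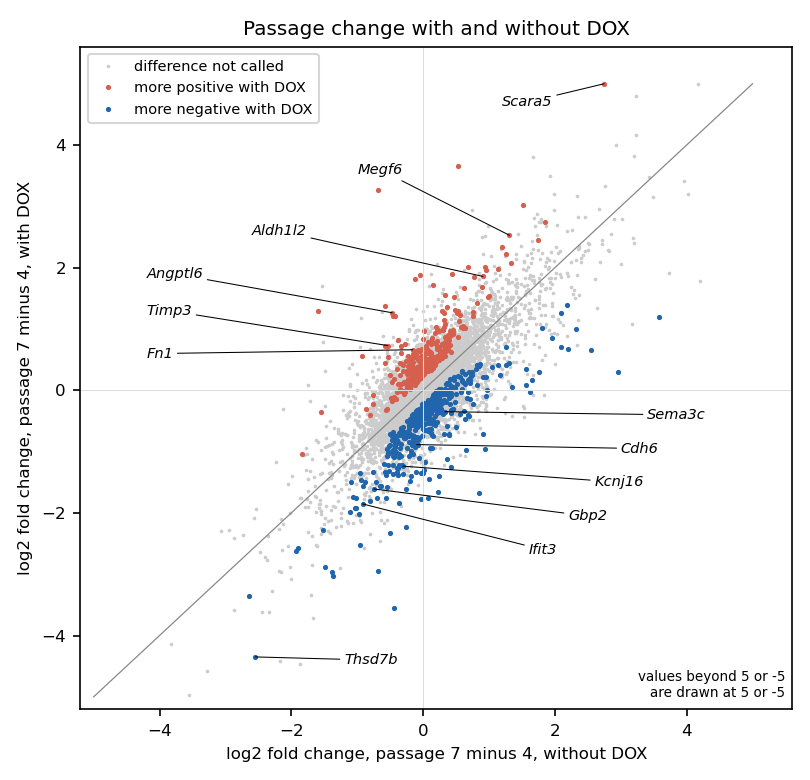
Log2 fold change of passage 7 over passage 4 with DOX (vertical) against without DOX (horizontal), 1 point per gene of the 16-library fit, with the diagonal marking equal changes. Red points (339) had a more positive and blue points (482) a more negative change with DOX; Angptl6 lies at 1.27 with and -0.47 without DOX.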

How the data were processed

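RNA was measured by poly(A)-selected, strand-marked, paired-end sequencing (75 bp reads). Per the labels' protocols, the authors aligned the reads to GRCm38 p6 using STAR 2.6.0c. They deposited raw counts per gene, whole numbers of 11486047 to 17188295 per library here. The counting tool, annotation and strand setting are not given in the sources used here. Therefore overlapping and antisense genes and near-identical copies such as ribosomal protein, Gbp and H2 genes are uncertain. The TPM values that the authors deposited were used only to compare headers. All 55536 identifiers matched the GRCm38 annotation.

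Genes were kept by filterByExpr in edgeR 4.0.16 (R 4.3.3), which removed 40649 (27995 without a count), and TMM-scaled. The 8 libraries were fitted by robust quasi-likelihood with passage and replicate set (1 and 2, or 3 and 4) as terms and 5 residual degrees of freedom. The biological coefficient of variation was 5.8%, and 10.16% without the set term. Adjustment was by Benjamini-Hochberg over all tested genes, at a threshold of 0.05. The passage by DOX interaction was fitted on all 16 libraries (15316 genes, 11 residual degrees of freedom). Fits were tested on simulated data.

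Same-numbered libraries of both passages deviated together (correlations 0.308 to 0.327, against 0.238 to 0.294 for the other number of the set and -0.328 to -0.255 across sets), and each of the 8 had its own number as its closest match. The margin inside a set was small and the labels do not say that the numbers pair the libraries, so a pairing is not established. The block by number is among the alternatives. Counts of 2 replicates differed with a chi-square per degree of freedom of 2.48 to 4.65 inside a set and 10.4 to 18.9 across sets, so none was a copy of another. The alternatives were no set term, that block, RLE scaling, DESeq2 1.42.0, other filters, all 16 libraries, each set alone, each library left out and, chosen after seeing the data, the median change of each chromosome removed.

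The comparison and the 55 gene lists (1228 symbols, 1022 tested) were chosen with earlier results of these data known, and lists are described without a test. Named were, among called genes at 5 CPM or more in the higher group without overlap, the 15 largest changes and the 5 smallest adjusted p in each direction, up to 4 called members of each list (3 in each direction), the 5 smallest adjusted p in each direction for the interaction, and Pkd2 and Pkd1, leaving out genes without a proper symbol; a few genes are not reported here. Of 188 genes, 17 were chosen after their values were seen: Pkhd1, Isg15, Ifit3, H2-K1, B2m, Ddit3, Atf4, Asns, Atf3, Trib3, Ero1l, Ndrg1, Ldha, Fn1, Cftr, Wnt7a and Csf1r. Promoter windows are from RefSeq (GRCm38.p6), 1 per gene at the most upstream start.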

Additional observations from a re-analysis of the deposited data

Results flagged for a closer look

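Within the groups of 4 libraries, 1 library stood far from the other 3 for 12 of 376 combinations of a named gene and a passage, where chance gives about 1 in 20. At passage 4 these were Tshz2 in replicate 2 (13.2 CPM, against 8.99 to 9.32), Isg15 in replicate 3 (52.2, against 47.3 to 48.0), Oasl1 in replicate 2 (86.5, against 103 to 107), Tpx2 in replicate 1 (44.2, against 35.9 to 37.2), Fn1 in replicate 4 (720.0, against 660.4 to 661.5) and Bmp4 in replicate 3 (1.11, against 1.84 to 1.97). At passage 7 they were Pkp1 (22.7 CPM, against 16.4 to 17.5), Gsr (207, against 183 to 186) and Sparc (16, against 11.4 to 11.8) in replicate 1, Ift172 in replicate 2 (149, against 133.1 to 133.3), B2m in replicate 3 (2052, against 2145 to 2162) and Fbn1 in replicate 4 (0.508, against 0.140 to 0.186). The passage 4 and passage 7 libraries did not overlap for any of these 12 genes.

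The passage change with DOX differed from that without DOX by the interaction test for 339 genes in the positive and 482 in the negative direction, 72 of which are named in the report; without passage 4 without DOX replicate 1 the positive count was 203. Differences, with DOX minus without on the log2 scale, were as follows. The passage change was more negative with DOX for Thsd7b (-1.80), Ccl2 (-1.59), Cxcl5 (-1.56), Ntm (-1.38), Cys1 (-1.2), Dkk3 (-1.05), Havcr1 (-1.03), Ifit3 (-0.94), Kcnj16 (-0.93), Chpf (-0.87), Gbp2 (-0.86), Sbsn (-0.86) and Sorcs2 (-0.81). Smaller negative differences were found for Cdh6 (-0.79), Itga1 (-0.78), Srd5a1 (-0.75), Cldn19 (-0.71), Mmp7 (-0.68), Sema3c (-0.68), Krt20 (-0.66), St3gal1 (-0.66), Iigp1 (-0.62), Glis2 (-0.60), Cdh16 (-0.60), Nr3c2 (-0.58) and Gbp3 (-0.57). The least negative were Hoxb5 (-0.53), Prom1 (-0.53), Tgfbr2 (-0.44), Tead1 (-0.34), Piezo1 (-0.30), Itga3 (-0.28), Plau (-0.27) and Pax8 (-0.23). It was more positive with DOX for Scara5 (2.51), Angptl6 (1.73), Pkp1 (1.5), Timp3 (1.26), Myo3b (1.22), Megf6 (1.22), Mettl7b (1.15), Trpv6 (1.00), Fbln2 (0.96), Aldh1l2 (0.95), Ltbp2 (0.90) and Cth (0.84). Smaller positive differences were found for Fn1 (0.82), Trib3 (0.75), Reep6 (0.74), Kif21b (0.72), Sat1 (0.72), Col4a3 (0.70), Nfil3 (0.67), Psph (0.66), Atf3 (0.62), Stc2 (0.58), Nt5e (0.54), Wnt7a (0.49) and Sqle (0.46). The least positive were Lonp1 (0.46), Asns (0.45), Ddit3 (0.45), Hspa9 (0.43), Ift172 (0.43), Lss (0.41), Dnaja3 (0.35), Lcn2 (0.34), Krt8 (0.31), Msmo1 (0.31), Hif1a (0.25), Atf4 (0.24) and Plin2 (0.24).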

How the results depend on the processing

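The counts of genes kept their size within 1.5-fold under most alternatives, and no named gene that was called changed direction. Without the set term, 2088 genes fell, and the difference of passage changes was positive for 79 and negative for 104. With no filter on low counts, 473 genes fell at least 2-fold and 523 had a more positive difference. With the stricter filter (a mean of 5 CPM, and 1 CPM in 4 libraries), 175 rose and 121 fell at least 2-fold, of fewer genes tested. Pkd2 was called higher in replicates 3 and 4 alone (0.18, adjusted p = 0.0495). With each library left out in turn, 3264 to 3499 genes rose and 2859 to 3203 fell, 450 to 516 rose and 296 to 339 fell at least 2-fold, Pkd2 differed by 0.06 to 0.15, and the difference was positive for 203 to 414 genes and negative for 324 to 545. The lowest positive count, 203, came without passage 4 without DOX replicate 1. With the replicate number as a block in place of the set, 3597 genes rose, 3219 fell, and Csf1r was called (adjusted p = 0.000224). DESeq2 gave 3080 and 2966, RLE scaling 3521 and 3442, replicates 1 and 2 alone 2643 and 2266, and replicates 3 and 4 alone 3034 and 2778. Over the named genes, 3299 alternative values kept their call, 34 lost it and 12 gained it, 10 of the losses without the set term. Over the gene lists, 763 medians moved by less than the spread between replicates and 83 by more, and 1557 counts of called members kept their size within 1.5-fold and 135 did not. With chromosome medians removed, higher members went from 10 to 5 for calcium stores and entry, from 7 to 3 for Hox genes and from 5 to 1 for the respiratory chain. The cause of these changes was not tested. On simulated counts for this comparison (14726 genes), 92% of 1.5-fold and 100% of 2-fold changes were recovered, so a smaller change that was not called may have been missed at this depth.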
